A study of Saccharomyces cerevisiae with 14 samples.

Results

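The genes described are 10 iron genes of Saccharomyces cerevisiae, out of 6008 protein-coding genes on the R64 reference annotation. They are the iron regulators AFT1 and AFT2 and the transport genes FET3, FTR1, FET4, SMF3, ARN1, FIT2, FRE1 and CCC1. A Sef1 peak was given to a gene when its position was no more than 2000 bp upstream and no more than 200 bp downstream of that gene's ATG. By this rule, 19 of the 3812 peaks of the series fell in the windows of the 10 genes. Peak intervals of different lists that overlapped were merged, and the 19 peaks then made 5 of 1066 sites. All 5 had calls in at least 3 repeats of 1 medium, as did 60.5% of the 1066 sites (645).

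Sef1 was mapped by chromatin immunoprecipitation and sequencing (ChIP-seq) in YPGly, where glycerol is the carbon source and cells must respire, and in YPD, where glucose is the carbon source and cells mostly ferment. There were 3 YPGly repeats and 4 YPD repeats, with 1 peak list each. All groups were the same single strain, W303ScSef1TAPNB1-1, a MATa W303 derivative with the alleles can1-100, leu2-3 and leu2-112, ade2-1, his3-11,15, ura3-1 and trp1-1, in which SEF1 carries a TAP tag (SEF1-TAP::FRT). Cells were taken in log phase after 4.5 h at 30°C, at 0.4 OD600 per ml in YPGly and 1.0 OD600 per ml in YPD, and more YPD than YPGly cells were used for each repeat, the YPD cells being precipitated in several portions that were then pooled. Cells without the tag and iron-poor or iron-rich media were not analysed here, and the precipitation used the affinity of the tag for IgG beads.

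Sef1 is a zinc cluster transcription factor, a class that commonly contacts CGG triplets. In Candida albicans, Sef1 is an activator of iron uptake genes. In S. cerevisiae that work is done by Aft1 and its paralog Aft2, which activate genes of the iron regulon when iron is scarce and bind DNA around a CACCC core. Their targets include reductases that make ferrous iron at the cell surface, an oxidase and permease pair that carries it in, cell wall proteins and carriers that take up iron bound to siderophores, and a vacuolar exporter.

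A Sef1 peak in at least 1 list was found for 4 of the 10 genes, both regulators and the 2 genes of the high-affinity uptake complex, beside 20.8% of all protein-coding genes (1248 of 6008). In YPGly, the same 4 genes (AFT1, AFT2, FET3 and FTR1) had a site called in all 3 repeats, beside 8.31% of all genes (499). In YPD, 1 gene (AFT2) had a site called in at least 3 repeats, beside 12.2% of all genes (733). Since the 10 genes had been chosen with results of these data known, no test was made on these counts. No peak of any list fell in the windows of FRE1, FET4, ARN1, FIT2, SMF3 and CCC1.

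**Figure D1:**
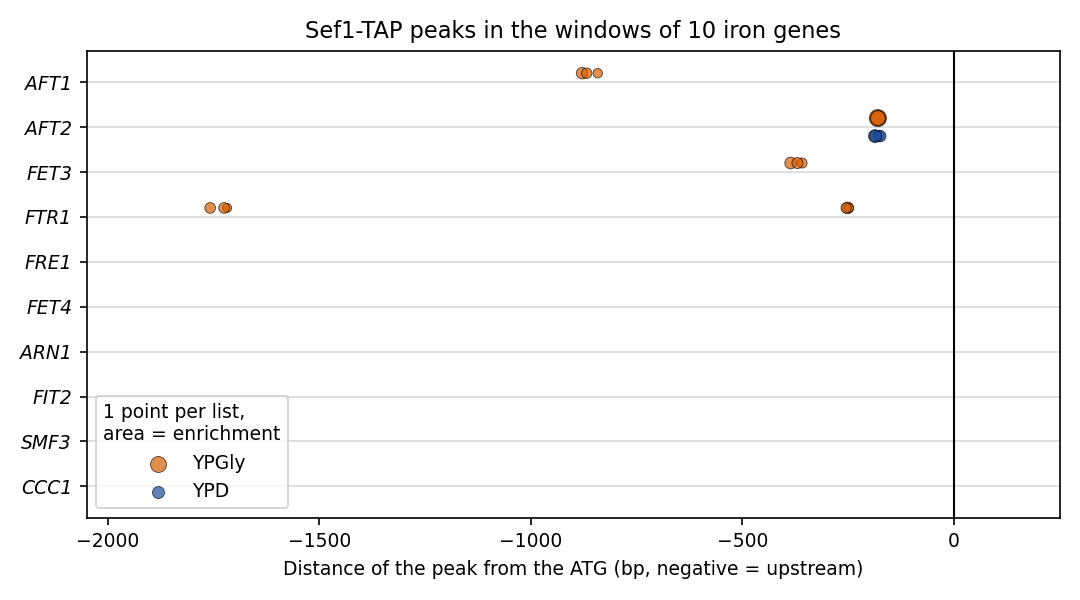
Peaks of the 7 lists in the windows of the 10 genes, by distance from the ATG in bp (x axis, negative upstream). YPGly peaks are drawn above the line of each gene and YPD peaks below it, 1 point per list, with an area in proportion to the enrichment; AFT2 alone has peaks of both media, and 6 genes have none.

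The reference sequence under the member sites is given first for AFT2, the site that every list called. The stretch lies in the intergenic DNA upstream of AFT2 (R64, minus strand, chrXVI:169459-169579) and runs from 241 to 121 bp upstream of the ATG. Capitals mark a CCG and a CGG triplet 4 bp apart.
AFT2: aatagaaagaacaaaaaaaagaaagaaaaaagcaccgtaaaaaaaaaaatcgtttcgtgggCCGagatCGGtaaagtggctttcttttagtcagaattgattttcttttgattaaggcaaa

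The sites of the uptake genes are shown because their sequence differs from that of AFT2 in base composition and in the matches they hold. In FET3 (R64, plus strand, chrXIII:388393-388583, from 429 to 239 bp upstream of the ATG), capitals mark GCACCC in either orientation and the CGG or CCG triplets, and the first GGGTGC overlaps a triplet. In the proximal site of FTR1 (R64, minus strand, chrV:461896-462111, from 371 to 156 bp upstream), capitals mark GCACCC in either orientation only. In the distal site of FTR1 (R64, minus strand, chrV:463450-463530), capitals mark a CCG and a CGG triplet 5 bp apart, the pattern CCGN5CGG.
FET3: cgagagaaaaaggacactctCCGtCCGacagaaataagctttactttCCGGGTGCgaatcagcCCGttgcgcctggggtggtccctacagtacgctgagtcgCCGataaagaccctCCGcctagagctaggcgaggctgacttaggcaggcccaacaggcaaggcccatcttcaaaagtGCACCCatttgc
FTR1 proximal: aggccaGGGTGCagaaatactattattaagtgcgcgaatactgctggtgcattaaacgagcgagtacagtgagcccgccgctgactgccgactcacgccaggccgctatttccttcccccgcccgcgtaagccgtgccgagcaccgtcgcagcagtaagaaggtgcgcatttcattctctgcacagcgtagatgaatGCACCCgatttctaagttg
FTR1 distal: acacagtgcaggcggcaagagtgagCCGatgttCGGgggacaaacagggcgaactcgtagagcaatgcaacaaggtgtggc

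AFT2 (YPL202C, chrXVI:168088-169338, minus strand) encodes the paralog of Aft1 and had the most enriched site of the 10 genes. The site, chrXVI:169389-169648, is centered 181 bp upstream of the ATG in intergenic DNA, and AFT2 is the gene whose ATG is nearest. It lies also in the window of CSM4, which acts in meiosis, at 1965 bp upstream. The peak positions of the 7 lists lay between 169512 and 169525, a range of 13 bp.

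The enrichment deposited by the authors, the fold of ChIP signal over input, was 4.85, 3.50 and 3.65 at the AFT2 site in YPGly repeats 1, 2 and 3, against 2.68, 2.10, 2.09 and 2.30 in YPD repeats 1 to 4. The means were 4.00 ± 0.743 in YPGly (SD, n = 3) and 2.29 ± 0.275 in YPD (SD, n = 4). The ratio of the means was 1.75, but enrichments of different lists are not on 1 scale. Among the 203 sites called in all 7 lists the median ratio of YPGly over YPD was 1.33, and 71 sites had a higher ratio than AFT2. The false discovery rate (FDR) of the peak was between 0.0011 and 0.00498 in the 7 lists.

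Ranks within each list, with 1 for the most enriched of the 203 shared sites, were therefore compared. The AFT2 site ranked 101, 95 and 105 in YPGly, against 101, 108, 118 and 116 in YPD, so that the media overlapped. The mean rank was 100.3 ± 5.03 in YPGly (SD, n = 3) and 110.75 ± 7.80 in YPD (SD, n = 4), and the difference of -10.4 ranks exceeded the SD of either medium but did not pass the test (two-sided exact permutation test over 35 splits, p = 0.143, Benjamini-Hochberg adjusted p = 0.195 over 203 sites). Of the 203 shared sites, 25.6% (52) reached the smallest unadjusted p of this test, 0.0286, with ranks nearer the top in YPGly. Another 29.1% (59) reached it with ranks nearer the top in YPD. Sites whose ranks were separated but gave a larger p are not in these shares. None of the 203 passed the adjusted threshold of 0.05. The smallest p that this permutation test can give became 0.0523 after adjustment, so this result does not say whether any shared site differed between the media. Ranked by the score in place of the enrichment, the difference turned to 5.83 (exact permutation p = 0.257), so the data gave no stable order of the media at AFT2. Over the median enrichment of the shared sites in the same list, AFT2 stood at 1.02, 1.05 and 0.959 in YPGly, against 1.03, 0.962, 0.930 and 0.871 in YPD, which places it near the middle of the shared sites in both media.

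**Figure D2:**
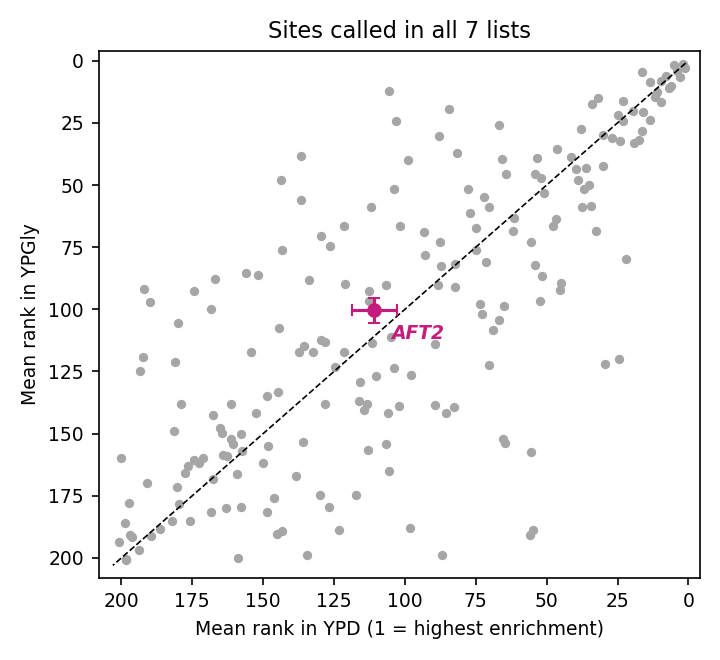
Mean rank of the 203 sites called in all 7 lists, in YPGly (y axis) against YPD (x axis), with rank 1 at the top right and equal ranks on the dashed line. The AFT2 site, with bars of 1 SD over 3 YPGly and 4 YPD repeats, lies close to the line at 100.3 in YPGly and 110.75 in YPD, while many other sites lie farther from it.

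The sites whose ranks were most like those of AFT2 over the 7 lists, by the sum of absolute rank differences, were near YKR041W and UTH1 (58), SCW10 and FKS3 (62), GLN1 (69), MNN4 (72), and TEC1 and UBC4 (94). UTH1 and SCW10 are linked to the cell wall, GLN1 encodes glutamine synthetase and MNN4 acts in mannan modification. The site closest to AFT2, near YKR041W and UTH1, had a mean enrichment of 4.20 ± 0.408 in YPGly (SD, n = 3) and 2.28 ± 0.301 in YPD (SD, n = 4). None of these genes is among the iron genes listed.

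The remaining 4 sites, those of AFT1, FET3 and FTR1, were called in all 3 YPGly repeats and in no YPD list. That pattern was shared by 5.53% of the 1066 sites (59). Since the 4 sites are grouped here by these calls, the calls are a description of them and no test is given. Over all 1066 sites, calls compared by Fisher's exact test (two-sided, Benjamini-Hochberg adjusted) passed the threshold of 0.05 for 0.0% of sites, and 18.9% (201) had an unadjusted p below 0.05. With 3 against 4 lists the smallest p of this test is 0.0286, which became 0.152 after adjustment. The 0.0% therefore does not say whether any site differed between the media. A missing call says that no peak passed the authors' caller in that list, not that the signal there was that of the input.

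AFT1 (YGL071W, chrVII:372012-374084, plus strand) encodes the main activator of the iron regulon. Its site, chrVII:371015-371275, is centered 867 bp upstream of the ATG and inside the coding sequence of the neighbor HSF1, the heat shock transcription factor gene. No other gene had this site in its window, and its peak positions spanned 37 bp. The enrichment was 2.17, 1.47 and 1.78 in YPGly repeats 1 to 3 (mean 1.80 ± 0.351, SD, n = 3), and these peaks ranked 290 of 520, 312 of 373 and 273 of 395 in their lists. All 3 values were below the lowest YPGly value of AFT2, 3.50. The reference around the site (R64, plus strand, chrVII:371105-371205) is shown since it is coding DNA, with CGG and CCG triplets in capitals.
AFT1: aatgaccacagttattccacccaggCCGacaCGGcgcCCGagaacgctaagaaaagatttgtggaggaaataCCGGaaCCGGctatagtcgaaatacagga

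FET3 (YMR058W, chrXIII:388822-390732, plus strand) encodes the multicopper oxidase of high-affinity iron uptake. Its site, chrXIII:388323-388582, is centered 369 bp upstream of the FET3 ATG, in intergenic DNA. AAC1, which encodes a mitochondrial ADP/ATP carrier and is read in the other direction, has the nearer ATG at 209 bp, and BUB2, a mitotic checkpoint gene, has the site 1432 bp upstream. The call therefore cannot be given to FET3 alone. The enrichment was 2.23, 1.66 and 2.00 in YPGly repeats 1 to 3 (mean 1.97 ± 0.286, SD, n = 3), with positions within 27 bp. Among the 4 sites without a YPD call, this one had the highest mean, though the SDs overlapped.

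FTR1 (YER145C, chrV:460526-461740, minus strand) encodes the permease that works with Fet3, and it was the only one of the 10 genes with more than 1 site. The proximal site, chrV:461866-462125, is centered 256 bp upstream of the ATG, which is the nearest ATG, and lies also in the windows of LSM5, which acts in RNA processing, at 589 bp, and of UBP5, a ubiquitin protease gene, at 1773 bp. Its enrichment was 2.23, 1.51 and 1.70 in YPGly repeats 1 to 3 (mean 1.82 ± 0.374, SD, n = 3). The peak positions of the 3 lists lay within 6 bp.

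The distal site of FTR1, chrV:463336-463603, is centered 1730 bp upstream of the ATG and inside the coding sequence of SCC4, a cohesin loader gene. The nearest ATG is that of YER145C-A at 647 bp, and the site is also 1833 bp upstream of SPT15, which encodes the TATA-binding protein. Its enrichment was 1.86, 1.38 and 1.89 in YPGly repeats 1 to 3 (mean 1.71 ± 0.287, SD, n = 3), the lowest mean of the 5 sites. In YPGly repeat 2 this peak stood near the end of the list, with a score of 156.2 where the lowest was 155.6 and an FDR of 0.0499. It was also the farthest peak inside a window, with a position 1758 bp upstream in YPGly repeat 1.

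**Figure D3:**
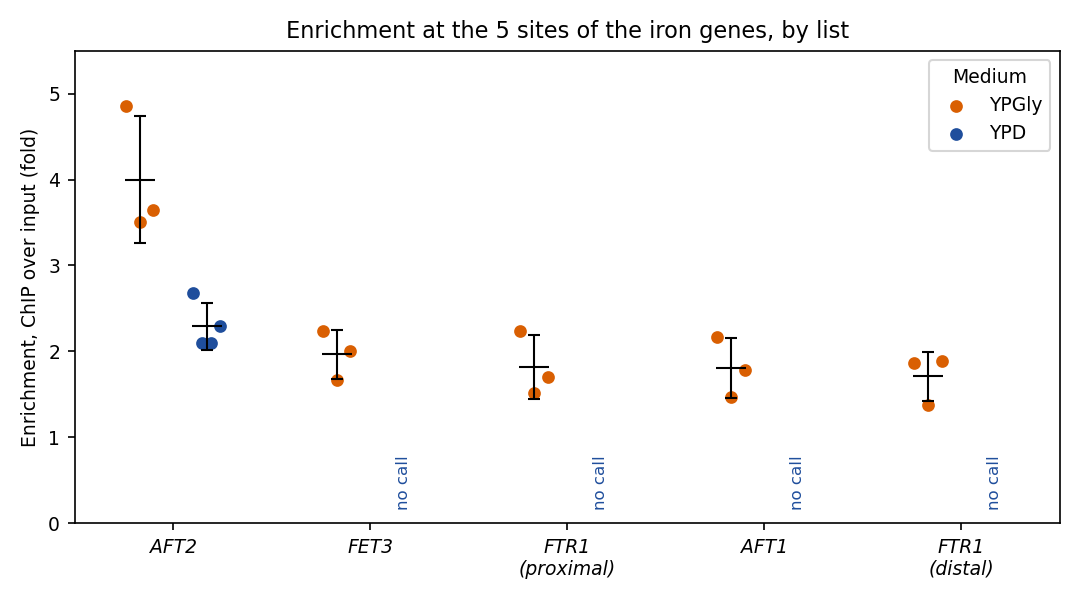
Enrichment of ChIP over input (fold) at the 5 sites, YPGly left and YPD right, 1 point per list, with the mean and 1 SD (3 YPGly and 4 YPD lists). At AFT2 the YPGly values lie between 3.50 and 4.85 and the YPD values between 2.09 and 2.68, and at the other sites the YPGly values lie between 1.38 and 2.23 with no YPD call.

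In the full lists AFT2 stood 18.8 to 33.9% of the way down, and every peak of the other 4 sites stood in the lower part, 53.3 to 89.3% of the way down. AFT2 ranked 131 of 520, 118 of 373 and 134 of 395 in YPGly, against 167 of 528, 145 of 771, 192 of 615 and 179 of 610 in YPD. FET3 ranked 278, 258 and 223 in the YPGly lists, the proximal FTR1 site 277, 295 and 283, and the distal one 343, 333 and 252. Over the 59 sites with YPGly calls alone, the median of the mean enrichments was 2.13 (range 1.31 to 6.39), and 36 had a higher mean than FET3, 39 than the proximal and 45 than the distal FTR1 site, and 40 than AFT1. The YPD lists also hold weak peaks. Their lowest enrichments were between 0.988 and 1.03, and 12.7 to 52.9% of their peaks were below 1.5, but these values are not on the scale of the YPGly lists and set no limit on the 4 sites in YPD. With an enrichment of at least 2 required of every peak, AFT2 was the only one of the 10 genes still called in all YPGly repeats, while FET3 kept 2 YPGly calls and AFT1 and FTR1 kept 1 each. The median enrichment of all peaks was 2.32, 2.13 and 2.21 in YPGly repeats 1 to 3, so this cut removes many peaks of each list. The share of all genes still called at this cut was not counted, so the loss is not read as particular to these genes.

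**Figure D4:**
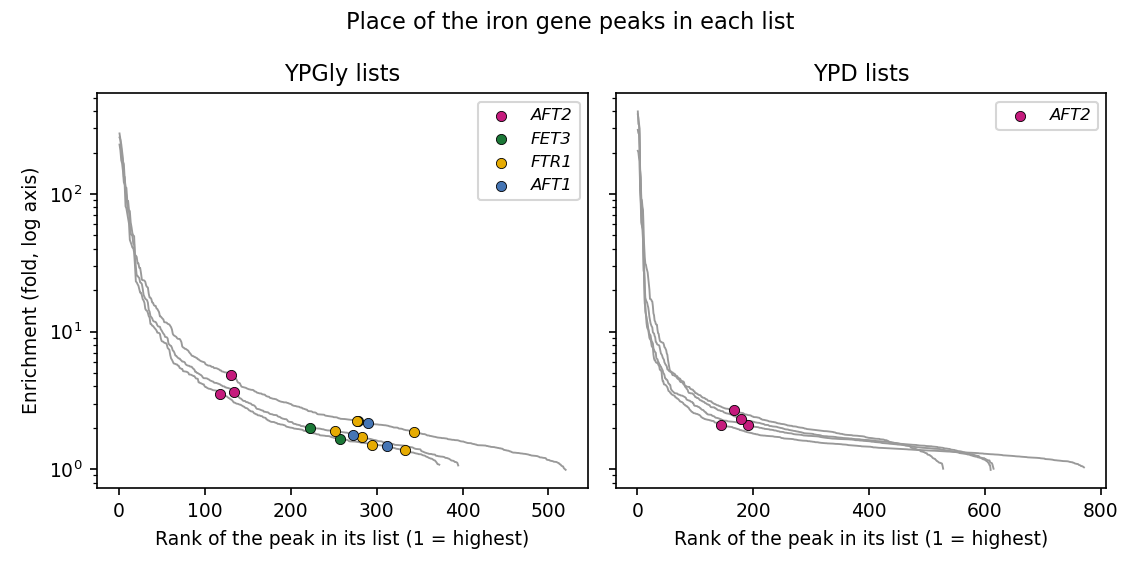
Enrichment (log axis, fold) against the rank of each peak in its own list (gray lines, 1 per list), for 3 YPGly lists on the left and 4 YPD lists on the right, with the peaks of the 4 iron genes as points. AFT2 ranks between 118 and 134 in YPGly and between 145 and 192 in YPD, and FET3, FTR1 and AFT1 rank between 223 and 343 in YPGly.

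The 6 genes without a peak have several roles in iron transport. They are FRE1, a cell surface metalloreductase; FET4, a low-affinity ferrous iron transporter; ARN1, a siderophore carrier; FIT2, a cell wall mannoprotein that helps retain siderophores; SMF3, an exporter of iron from the vacuole; and CCC1, an importer of iron into it. The peak nearest to SMF3 lay 2983 bp upstream of its ATG, outside the window, and came from YPD repeat 2. For the other genes the nearest peak of any list was 13845 bp from the ATG of ARN1, 15810 from CCC1, 16082 from FIT2, 24068 from FRE1 and 26459 from FET4, which gave a median of 15946 bp over the 6 genes. FET4, ARN1 and FIT2 have their ATG 9893, 20971 and 31760 bp from a chromosome end.

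A longer list of iron genes, drawn up by role from general knowledge, added 25 genes. Of these, 1 had a peak in its window, beside 20.8% of all genes, and it was GRX3 (YDR098C), a glutaredoxin that takes part in iron sensing with Aft1. Together with the 10 genes, peaks were found for 3 of 9 regulators and 2 of 4 high-affinity uptake genes. The counts were 0 of 6 reductases, 0 of 2 low-affinity transporters, 0 of 7 siderophore genes, 0 of 4 vacuolar genes, 0 of 2 mitochondrial importers and 0 of 1 heme degradation gene. With so few genes in a role, and 20.8% of all genes having a peak, these counts were not read as a difference between roles.

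The GRX3 site, chrIV:645088-645311, is centered 270 bp upstream of the ATG, and MSH6, a mismatch repair gene, has it 1363 bp upstream. Its enrichment was 1.49 in YPGly repeat 1, with no call in YPGly repeats 2 and 3, against 2.01, 1.53, 1.78 and 1.74 in YPD repeats 1 to 4 (mean 1.76 ± 0.199, SD, n = 4). The calls gave p = 0.143 by two-sided Fisher's exact test and an adjusted p of 0.401. The site overlaps the tRNA gene YNCD0014C. Of the 645 sites called in at least 3 repeats of a medium, 31.0% had a tRNA gene within 125 bp of the center. Among those not called in all YPGly repeats, as the GRX3 site was not, the share was 55.8% (174 of 312), and among the 59 sites with YPGly calls alone it was 1.69%. The 5 sites of the 10 genes had none within that distance.

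Letters that zinc cluster factors commonly contact were searched on both strands in the 250 bp around each site center. CCGN5CGG, which is its own reverse complement, was found in 1 of the 5 sites, the distal FTR1 site (chrV:463495-463505, 30 bp from the center), beside 9.46% of the 645 sites. CCGN4CGG was found in AFT2 (chrXVI:169509-169518), 5.5 bp from the site center and 176 bp upstream of the ATG, and in AFT1 (chrVII:371177-371186), 36.5 bp from the center, beside 8.37% of sites. This spacing was added after the AFT2 window had been seen. CGGN7CGG was found in the proximal FTR1 site, 32 bp from the center, beside 13.6%. The FET3 site held none of these. With 1 mismatch allowed in CCGN5CGG, 4 of the 5 sites had a match, all but AFT1, beside 50.7% of sites. All sites but that of AFT2 were among the 59 sites with YPGly calls alone, where the shares were higher. They were 16.9% for CCGN5CGG, 16.9% for CCGN4CGG, 15.3% for CGGN7CGG and 67.8% for CCGN5CGG with 1 mismatch.

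The 5 windows differed in composition. AFT2 held 5 CGG or CCG triplets and 34.0% GC, both below the medians over the 645 sites of 6 triplets and 42.0%. AFT1 held 10 triplets with 49.6% GC, FET3 9 with 52.0%, proximal FTR1 12 with 55.6% and distal FTR1 7 with 51.6%, all above both medians. The most enriched of the 5 sites was also the one with the fewest triplets and the lowest GC, and a relation of enrichment to triplets or GC was not tested. It held 1 pair of triplets near its center, at the spacing added after that window had been seen.

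GCACCC, a form of the core that Aft1 and Aft2 bind, was searched on both strands after the sites had been seen. Within 125 bp of the site centers it occurred 2 times in FET3, at 8.5 and 121.5 bp, and 2 times in the proximal FTR1 site, at 84.5 and 106.5 bp, beside 8.68% of the 645 sites with at least 1 match. Among the 59 sites with YPGly calls alone, the share with at least 1 match was 11.9%. GCACCC was not in the windows of AFT1, AFT2 or the distal FTR1 site.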

How the data were processed

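Deposited peak lists of 7 Sef1-TAP ChIP samples were used, 3 from YPGly and 4 from YPD, out of 14 samples. The remaining records, reads and coverage were not used, and some record titles disagree on input and ChIP, so groups rest on the medium alone. The submitters' processing notes name Trimmomatic 0.36, Bowtie2 2.3.3 and build R64. The peak caller is not given in the sources used here. YPGly repeat 3 was sequenced in pairs, apart from the other libraries. Peaks were called by the authors per sample, not on pooled repeats.

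The authors' enrichment is a fold ratio of ChIP over input, and it was deposited with a lower bound. The authors' score is their caller's value for the signal of a peak. The deposited FDR is a q-value, and the interval lists deposited by the authors give it as −log10. Values were not normalized again. The study states a nominal depth, but the lists carry no read numbers, so the depth of each list is unknown. No counting interval is given, and errors are SDs between repeats.

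Peak intervals that shared at least 1 bp were joined into 1066 sites, of which 645 were called by 3 or more repeats of YPGly or of YPD. Ranks within each list over 203 shared sites were compared by two-sided exact permutation tests and calls by Fisher's exact tests, both with Benjamini-Hochberg adjustment. The labels name repeats but not separate cultures, and the study calls them biological replicates. Sequences, ATGs and coordinates are those of the RefSeq R64 reference (S288C), and W303 may differ from it. All 35 iron genes matched the annotation. The 10 genes and the lists were chosen with earlier results of these data known. The genes named were all 10 members, listed iron genes with a site in at least 3 repeats, genes sharing a member's peak and the 5 sites with ranks most like AFT2, and any other gene was named after its values were seen. Alternatives covered the window, the merging overlap, the enrichment minimum, the list length, the ranking value, the gene assignment, the motif and each repeat left out. Dixon's test (critical value 0.829) on 2 groups of 4 values found no outlier. The scripts were tested on simulated lists. Calculations used scipy 1.17.1, pandas 2.3.3 and numpy 2.4.6 under Python 3.11.15, and plots matplotlib 3.10.9.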

Additional observations from a re-analysis of the deposited data

How the results depend on the processing

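The difference in rank at AFT2 turned to 5.83 (exact permutation p = 0.257) when sites were ranked by score and to 2.50 (p = 0.657) when ranks were taken as percent of the whole list. In the other 12 settings AFT2 stood higher in YPGly and the test did not pass. One of them, chosen after seeing the data, was the enrichment over the list median of shared sites, where a higher site has a larger value and not a smaller rank, and the difference was 0.0633 (exact permutation p = 0.229). Without each repeat in turn it ranged from -13.75 to -7.67. Samples with the same repeat number did not deviate together (correlations of -0.330, -0.284 and -0.00398 over 203 sites), so the numbers were not taken as pairs. With a replicate block over repeats 1 to 3 the difference was -8.67 (exact p = 0.5 by swapping labels within pairs, where the smallest possible is 0.25).

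With an enrichment of at least 2, the number of the 10 genes called in all YPGly repeats was 1 and the number of sites called in YPGly only was 0, in place of 4 and 4, and the stricter threshold removes calls by its construction. Allowing 1 mismatch raised the sites with CCGN5CGG to 4 in place of 1, and a spacing of 4 bp, chosen after seeing the data, gave 2. A window of 500 bp upstream left 3 genes with a peak, without AFT1, and giving each peak to its nearest ATG left 3, without FET3. The shares over all genes or sites were not counted under the stricter threshold, the shorter window or the nearest-ATG rule. The counts under these rules therefore have no share beside them. Leaving out each repeat left 4 genes with a peak, 4 called in all YPGly repeats, 1 called in YPD and 4 YPGly-only sites. These counts were fixed in advance, since each site was called in all YPGly repeats and in all or none of the YPD repeats. The lists give no read numbers, so counting error and the depth of each list, beyond the nominal depth that the study states, are unknown. A site under the caller's threshold has no value.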

Other observations

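The same 6 letters were counted in the 500 bp upstream of each ATG. GCACCC occurred in 6 of the 10 iron genes, beside 7.62% of all protein-coding genes (458 of 6008). FIT2 had 5 matches, FET3, FTR1 and SMF3 had 2 each, and FET4 and ARN1 had 1 each, while AFT1, AFT2, FRE1 and CCC1 had none. At least 2 matches were found in 0.699% of all genes (42). Of the genes with a match, FET3 and FTR1 had Sef1 peaks in their windows, while FIT2, SMF3, FET4 and ARN1 had none. Of those without a match, AFT1 and AFT2 had peaks, while FRE1 and CCC1 had none. A relation between matches and peaks was not tested. Among the other iron genes, FRA1, a regulator that acts with the glutaredoxins, had a peak of YPD repeat 2 at 457 bp downstream of its ATG, and YAP5, the activator of CCC1 at high iron, had one of YPD repeat 4 at 2170 bp downstream. Both lay outside the window, and these were noted after their values had been seen.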
